A study of Mus musculus with 18 samples.

Results

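The genes described here encode the intraflagellar transport (IFT) particles and the BBSome of mouse testis. They were picked by gene symbol: 33 genes of the 22298 in the deposited mRNA table, on 16 chromosomes and with 0 on the X. All 33 were found and all 33 passed the filter on low counts, so every member was tested. They fall into 15 genes of the IFT-B particle, 7 of the IFT-A particle with its adaptor Tulp3, and 11 of the BBSome, its chaperonins and its accessory factors.

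RNA was sequenced from whole testis of C57BL/6 mice, 3 libraries with wild-type Taf7l and 3 with a Taf7l knock-in allele. Taf7l is the testis-enriched relative of Taf7, a component of TFIID, which helps RNA polymerase to start transcription, and the series describes the animals as adult. The labels give no further allele, treatment or age, and a read count does not show which Taf7l allele a library carries. The labels also name 12 samples of sorted germ cells, which were not analysed here. Taf7l itself had 27.7, 29.1 and 30.2 counts scaled to library size (CPM) in wild-type testis and 26.0, 27.1 and 27.3 in the knock-in, lower in each knock-in library, a log2 difference of -0.11 ± 0.08 (SE; edgeR's quasi-likelihood test, adjusted p = 0.632). Nothing in the labels ties the libraries to different mice, and p-values therefore reflect the spread among libraries, which may be technical. Wild-type library 2 and knock-in library 1 stood apart in Crisp1, an epididymal gene, with 225 and 173 counts against 1 to 3 in each other library. In whole testis, fewer cells of a type and less RNA per cell cannot be told apart.

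Intraflagellar transport carries building blocks along the microtubules of cilia and flagella. The IFT-B particle works mainly with kinesin towards the tip, the IFT-A particle works with dynein on the way back and brings membrane proteins in, and the BBSome is a coat-like complex that moves membrane proteins out of the cilium. In the testis the same machinery serves the spermatid, which grows the sperm tail, and mouse mutants in several of these genes make few sperm or sperm with malformed tails. Many genes of this machinery are known targets of RFX transcription factors, which bind the X-box.

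RefSeq promoter windows (GRCm38.p6, 250 bases before to 50 after the annotated start) were matched for 30 of the 33 members, 31 windows in all; Ift122, Ift80 and Ift81 had no entry. The RFX half-site GTTGCC, read on both strands, lay in 12 of the 31 windows (38.7%) and in 12.5% of all 32851 windows. The strict X-box GTTNCCNNGGNAAC, which reads the same way on both strands, lay in 2 (6.45%, against 0.450%), and both of its matches also hold the half-site. The cyclic AMP response element TGACGTCA lay in 2, those of Ift57 and Mkks (6.45%, against 1.79%), and the TATA letters TATAAA in 1, that of Bbs4 (3.23%, against 13.6%). These 4 are shown out of 15 forms counted and were chosen after their counts were seen. Of the 11 other forms, mostly X-boxes with other spacing or freer letters, 7 were commoner in the members' windows than in all windows. A match is a run of letters and shows no binding. The windows that held a strict X-box are printed first, with the X-box in capitals: Bbs7 (chr3:36613462-36613545, minus strand) encodes a BBSome subunit and Ttc26 (chr6:38381456-38381539, plus strand) an IFT-B subunit.
Bbs7: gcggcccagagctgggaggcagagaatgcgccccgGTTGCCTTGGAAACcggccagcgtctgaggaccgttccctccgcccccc
Ttc26: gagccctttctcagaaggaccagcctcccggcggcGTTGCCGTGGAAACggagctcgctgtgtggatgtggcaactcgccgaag

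The next windows belong to the members with the highest levels that had a match, with the half-site or its reverse complement in capitals: Ift140 (chr17:25015942-25016017, plus strand) and Ift172 (chr5:31291085-31291149, minus strand).
Ift140: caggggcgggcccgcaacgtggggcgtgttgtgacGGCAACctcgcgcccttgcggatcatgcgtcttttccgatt
Ift172: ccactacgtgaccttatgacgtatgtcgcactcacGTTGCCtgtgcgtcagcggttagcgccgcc
The bases before the start of Ift43 (chr12:86082311-86082560, plus strand) are shown because Ift43 was the member called by the test. Its window held none of the 4 forms on either strand, hence no capitals, which says only that these letters are not in this window.
Ift43: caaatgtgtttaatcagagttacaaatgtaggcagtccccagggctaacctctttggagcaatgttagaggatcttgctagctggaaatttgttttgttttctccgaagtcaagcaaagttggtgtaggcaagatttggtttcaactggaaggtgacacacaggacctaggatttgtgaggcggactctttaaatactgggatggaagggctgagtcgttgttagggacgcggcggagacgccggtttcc

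The first question was how strongly each component is expressed. Levels between genes were compared per length, as FPKM (fragments scaled to transcript length and library size) from the authors' table. The highest mean over the 6 libraries was 178 FPKM for Ift140, and the lowest was 1.55 for Mkks, a ratio of 115. The median member stood at 22.8 FPKM, against 5.49 for all genes tested. Among the members, IFT-A genes with Tulp3 had a median of 51.7 FPKM, IFT-B genes 22.9 and the BBSome group 9.42.

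The 3 most abundant members were Ift140, a large IFT-A subunit, Ift172, an IFT-B subunit, and Ift122, another large IFT-A subunit. Ift140 had 184, 177 and 177 FPKM in wild-type testis against 177, 169 and 184 in knock-in testis, and the genotypes overlapped. Ift172 had 135, 128 and 133 against 120, 117 and 121, every knock-in library below every wild-type one on this scale. Ift122 had 121, 117 and 120 against 116, 113 and 118, overlapping. Together these 3 genes made up 35.7% ± 0.304 of the members' summed FPKM in wild-type testis and 34.7% ± 0.311 in the knock-in (SD over 3 libraries each).

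At the other end stood Tulp3, the adaptor that links IFT-A to membrane cargo, and 2 chaperonin-like proteins that help to assemble the BBSome, Bbs12 and Mkks. Tulp3 had 5.20, 4.69 and 4.99 FPKM in wild-type testis and 4.78, 3.76 and 3.59 in the knock-in. Bbs12 had 2.32, 2.29 and 2.74 against 1.69, 2.05 and 2.05, and Mkks had 1.73, 1.29 and 1.96 against 1.22, 1.57 and 1.52. Of the 3, the genotypes overlapped for Tulp3 and Mkks on this scale, while all knock-in values of Bbs12 lay lower. Bbs10, the third chaperonin-like gene, was also low, at a mean of 7.30 FPKM.

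Between these ends the IFT-B genes among the members spread widely. Ift46 (83.2 FPKM) and Ift22, a small GTPase (72.8), led, followed by Ift74 (43.6), Cluap1 (34.1), Ift80 (33.3), the small GTPase Ift27 (26.5), Ift88 (22.9) and Ift52 (22.8). Ift74 and Ift81 encode partners that bind tubulin together, yet Ift81 stood at 13.6 FPKM. Hspb11 encodes the partner of Ift27 in a stable pair and stood at 5.17. Outside the members, the IFT-B gene Ttc30a2 had a mean of 125 FPKM. Among IFT-A genes, Wdr35 (64.7), Ift43 (51.7) and Ttc21b (48.0) lay above Wdr19 (22.3).

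In the BBSome group the highest member was Lztfl1 (43.0 FPKM), a regulator of BBSome traffic that is not a subunit. The subunits among the members ranged from Bbs5 (32.8) and Bbs7 (25.7) to Bbs1 (11.6), Bbs2 (9.41), Bbs4 (9.24) and Ttc8 (7.11). Bbip1, a subunit outside the members, stood at 18.6. Arl6, the small GTPase that recruits the BBSome to membranes, stood at 15.6. In the order of levels, 8 of the 32 neighbouring pairs were separate, in that every library of the higher gene lay above every library of the lower one, and 24 overlapped. The separate pairs were Ift140 over Ift172, Ift122 over Ift46, Ift46 over Ift22, Lztfl1 over Cluap1, Bbs5 over Ift27, Bbs7 over Ift88, Bbs1 over Bbs2 and Tulp3 over Bbs12.

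**Figure D1:**
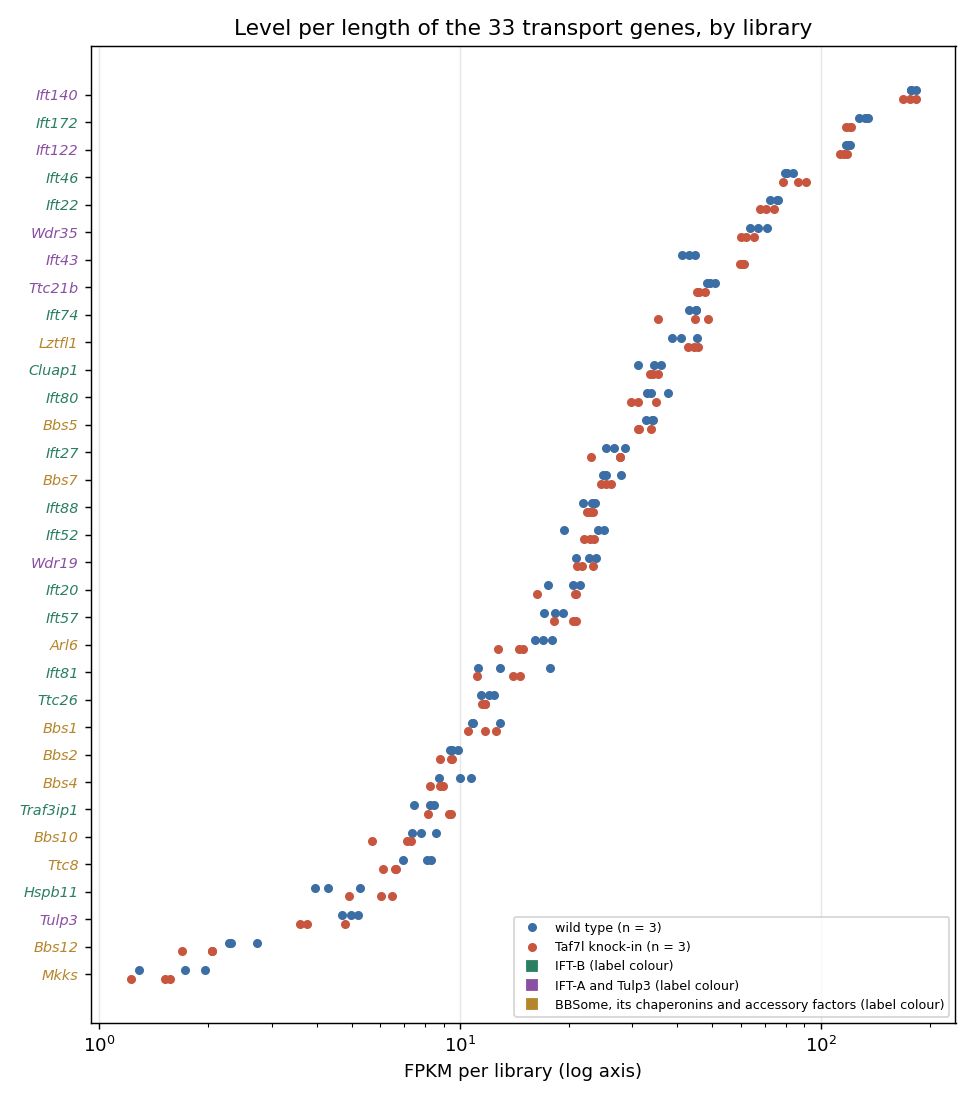
Level of each of the 33 genes as FPKM (log axis), 1 point per library, wild type in blue and knock-in in red, ordered by the mean of the 6 libraries. Ift140 is highest at 178 FPKM and Mkks lowest at 1.55, and for most genes the genotypes overlap.

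The comparison the design implies is that of knock-in with wild-type testis. It was made on counts with edgeR's quasi-likelihood test, with p-values adjusted over all genes tested and a call at an adjusted p under 0.05. Of the 33 members 1 was called, Ift43, a small IFT-A subunit, which was higher in the knock-in. Over all genes 155 of 15787 were called (0.982%), and 139 of these were higher (0.88% of those tested). The other 32 members, all IFT-B genes and the whole BBSome group included, did not pass. At an unadjusted p under 0.05 there were 4 members, Ift43, Ift80, Cluap1 and Tulp3, against 12.9% of all genes.

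Ift43 (ENSMUSG00000007867, chr12:86082561-86162459, mm10) had 848, 772 and 757 counts across wild-type libraries against 1121, 1168 and 1310 across knock-in libraries. Scaled for library size these were 46.3, 40.7 and 43.0 CPM against 61.6, 60.4 and 61.6. All knock-in libraries lay above all wild-type ones, and they lay closer together, with means of 43.3 ± 2.80 in wild-type testis and 61.2 ± 0.724 in the knock-in (SD over 3 libraries each). The rise was 41.2%, or 0.50 ± 0.07 on the log2 scale (SE; 95% interval 0.34 to 0.66; edgeR, adjusted p = 0.0155). The authors' deposited table gives it a log2 ratio of 0.49 and an adjusted p = 1.92e-05, and it is the 1 member among the 446 genes past the same threshold in that table. The next member in the authors' deposited table is Ift80, with an adjusted p = 0.130.

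The call on Ift43 depended on single libraries. It was lost without wild-type library 2 (edgeR, log2 0.46, adjusted p = 0.0757), without wild-type library 3 (0.49, adjusted p = 0.0803) and without knock-in library 3 (0.49, adjusted p = 0.0950). Without both libraries that held Crisp1, chosen after seeing the data and leaving 2 per genotype, Ift43 had 0.45 (95% interval 0.24 to 0.66, adjusted p = 0.110), and 0 members and 39 genes in all were called. Ift43 is short: 5.10% of the genes tested were shorter, and the shortest 10% of genes, up to 1271 bp, stood at 0.11 (median, log2 scale) and held 74 of the 139 genes called higher. With the trend over length removed Ift43 had 0.40 (adjusted p = 0.0407). The other members among those short genes were Hspb11 at 0.34, Ift27 at 0.01 and Ift20 at -0.04, none of them called. The part of gene length in the Ift43 result was not tested beyond this.

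The genes beside Ift43 on chromosome 12 were not called. Tgfb3, the nearest on the left, differed by 0.18 ± 0.17 on the log2 scale (SE), Ttll5 had 0.02 ± 0.05, and on the right Gpatch2l had -0.06 ± 0.08 and Esrrb -0.06 ± 0.23. None of these intervals of sequence overlaps Ift43 in the annotation.

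Across the 33 members, 12 had a positive log2 fold change and 21 a negative one, where 50.6% of all genes were above. The median was -0.02, beside 0.00 for all genes, and the range ran from -0.31 (Bbs12) to 0.50 (Ift43). Differences were small: 23 of the 33 (69.7%) lay within 0.1 of 0 on the log2 scale, against 43.7% of all genes. The median SE was 0.0764 for the members and 0.125 for all genes. For 29 members the 95% interval excluded any change over 1.5-fold in either direction. The members took 0.472% ± 0.0110 of all counts in wild-type testis and 0.465% ± 0.0122 in the knock-in (SD over 3 libraries each).

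**Figure D2:**
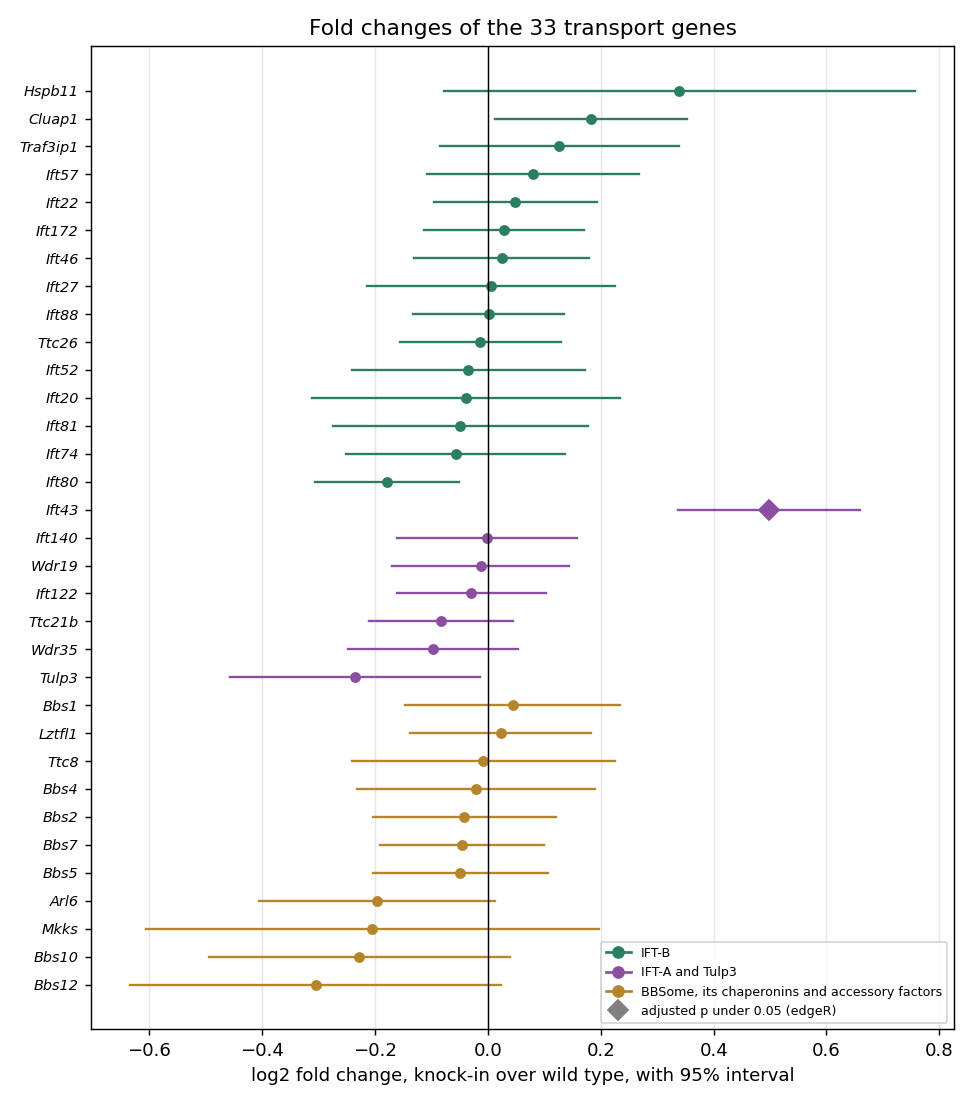
log2 fold change of each member, knock-in over wild type, with its 95% interval from edgeR, by role; a diamond marks an adjusted p under 0.05. Ift43 at 0.50 stands apart, and 23 of the 33 points lie within 0.1 of 0.

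In CPM, knock-in and wild-type libraries were fully separate for 6 members, against 18.5% of all genes tested. Of these, Ift43 and Cluap1 were higher in the knock-in, and Ift80, Tulp3, Bbs10 and Bbs12 were lower. Apart from Ift43, none of the 6 was called.

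In IFT-B, 9 of the 15 genes were on the positive side and 6 on the negative side, with a median of 0.01 and 0 called. Ift80, an IFT-B subunit whose human gene is linked to skeletal ciliopathy, had 169, 159 and 172 CPM in wild-type testis against 147, 143 and 152 in knock-in testis. All knock-in values lay below all wild-type ones, and the difference on the log2 scale was -0.18 ± 0.06 (SE; edgeR, adjusted p = 0.215). Cluap1, a subunit of the same outer part of the particle, had 47.4, 41.4 and 44.8 CPM against 52.3, 49.1 and 50.3. It was higher in each knock-in library, with 0.18 ± 0.08 (adjusted p = 0.352).

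Hspb11 had the largest positive value of IFT-B, on few counts. It had 3.55, 4.11 and 3.18 CPM in wild-type testis and 4.84, 4.96 and 3.95 in the knock-in, where the lowest knock-in library lay below the highest wild-type one (log2 0.34 ± 0.19 SE, 95% interval -0.08 to 0.76, adjusted p = 0.503 by edgeR). Traf3ip1, which binds microtubules, followed with 27.2, 23.6 and 27.3 CPM against 26.7, 28.4 and 30.2, overlapping (0.13 ± 0.09, adjusted p = 0.647). The remaining 11 IFT-B genes lay between -0.06 (Ift74) and 0.08 (Ift57). Ift88, the classic polycystic kidney gene of mouse, had 90.4, 83.1 and 88.1 CPM against 86.4, 86.6 and 88.8, with a 95% interval of -0.13 to 0.13 on the log2 scale. Ift172 had 764, 697 and 718 CPM against 753, 693 and 775, overlapping, with 0.03 ± 0.06.

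In IFT-A with Tulp3, Ift43 was the 1 gene of 7 above 0. The other 5 IFT-A subunits lay between -0.10 and 0.00: Wdr35 at -0.10, Ttc21b at -0.08, Ift122 at -0.03, Wdr19 at -0.01 and Ift140 at -0.0016, with SEs of 0.06 to 0.07. None of these 5, with which Ift43 assembles, was called. Tulp3 had 17.5, 17.3 and 17.9 CPM in wild-type testis and 14.02, 15.9 and 14.9 in the knock-in. All knock-in libraries were lower, with -0.24 ± 0.10 (SE; edgeR, adjusted p = 0.352).

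In the BBSome group 9 of the 11 genes were on the negative side, the median was -0.05 and 0 were called. On counts the 6 subunits among the members were all near 0, from -0.05 for Bbs5 and Bbs7 to 0.04 for Bbs1. The lower values were those of assembly and recruitment factors. Bbip1, a BBSome subunit outside the members, was higher without overlap (0.23 ± 0.10 SE, adjusted p = 0.352 by edgeR). It had 21.3, 17.9 and 18.2 CPM in wild-type testis against 22.6, 22.4 and 22.5 in the knock-in. On FPKM 2 subunits were also among the lower ones. Ttc8 had 8.30, 8.09 and 6.95 FPKM against 6.60, 6.11 and 6.63, without overlap (-0.26 on log2(FPKM + 0.1); limma, adjusted p = 0.333), and Bbs4 had 10.7, 8.75 and 10.01 against 8.94, 8.24 and 8.80, overlapping (-0.18, adjusted p = 0.509). On that scale Bbs10 had -0.24 and Mkks -0.18. Arl6 had 17.9, 17.0 and 16.2 FPKM against 14.6, 14.9 and 12.7, without overlap (-0.28 on log2(FPKM + 0.1), limma, adjusted p = 0.198). Bbs12 had 7.37, 6.91 and 8.29 CPM against 5.44, 6.31 and 6.49 and did not overlap (-0.31 ± 0.15 SE; edgeR, adjusted p = 0.427). Bbs10 had 26.7, 27.0 and 30.1 against 26.5, 19.7 and 25.4, the highest knock-in library just under the lowest wild-type one (-0.23 ± 0.12, adjusted p = 0.479).

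Mkks, the third chaperonin-like gene, had 6.71, 4.75 and 6.36 CPM against 4.73, 4.96 and 5.74 and overlapped (-0.21 ± 0.18 SE; edgeR, adjusted p = 0.707). Arl6 had 34.1, 28.2 and 31.2 against 28.3, 27.2 and 26.0, where the highest knock-in library passed the lowest wild-type one by a small margin (-0.20 ± 0.09, adjusted p = 0.423). Lztfl1 had 0.02 ± 0.07. Summed over the 11 genes, the group had 169 ± 4.17 FPKM in wild-type testis and 162 ± 2.30 in the knock-in (SD over 3 libraries each). The lowest wild-type sum was 165.7 and the highest knock-in sum 164.5, so the sums did not overlap on FPKM. Ttc8 and Bbs4 were lower on that scale, while on counts they had -0.01 ± 0.10 and -0.02 ± 0.09 (log2, SE). The separation of the sums is therefore given for FPKM alone and not for counts. IFT-B sums were 550 ± 9.72 and 536 ± 17.2, and IFT-A sums with Tulp3 486 ± 10.2 and 487 ± 10.1, both overlapping.

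**Figure D3:**
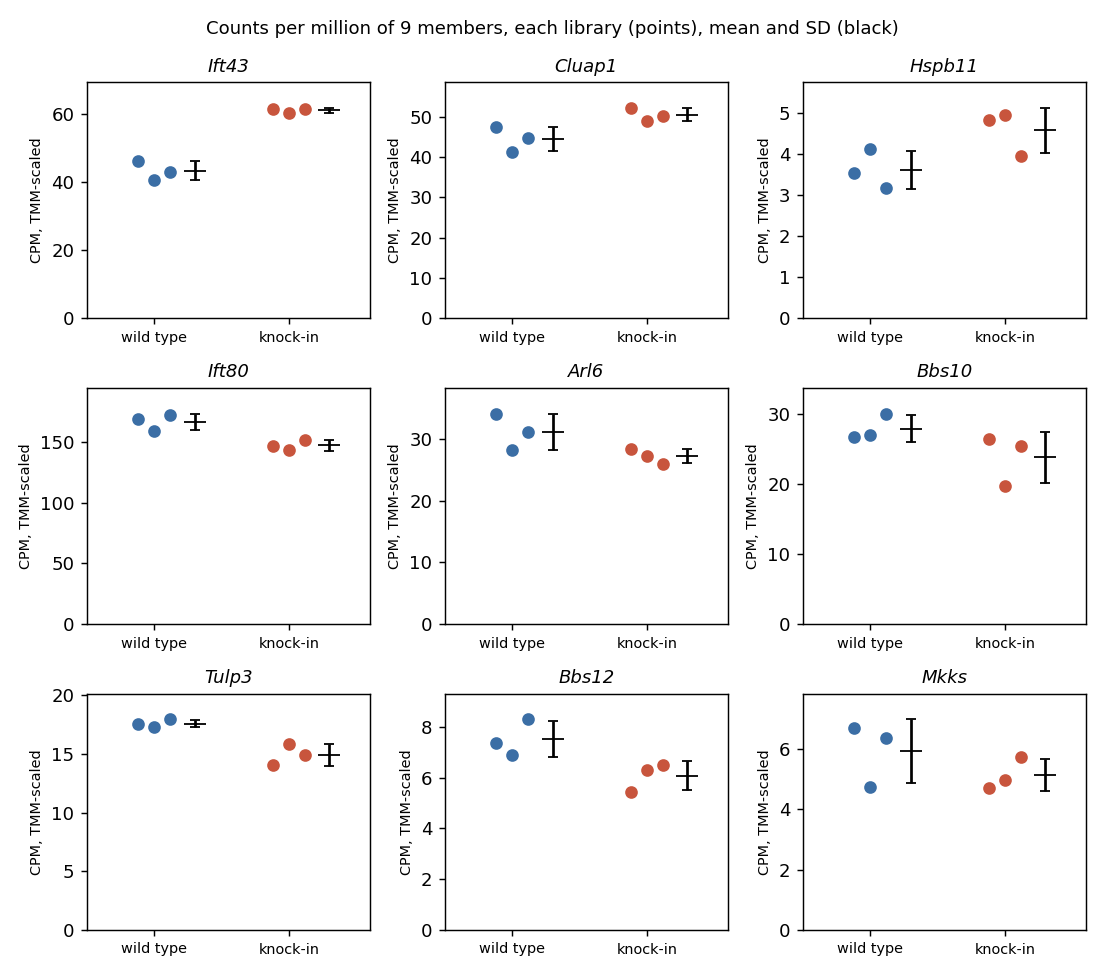
CPM of 9 members in each library (points), with mean and SD (n = 3 per genotype) in black; each axis starts at 0. Ift43 and Cluap1 are higher in every knock-in library, Ift80, Tulp3, Bbs10 and Bbs12 lower, and Hspb11, Arl6 and Mkks overlap.

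The median log2 deviation of the members from their own mean over the 6 libraries was 0.05, -0.05 and 0.01 for wild-type and 0.03, -0.07 and 0.03 for knock-in libraries. Library 2 was the lowest in both genotypes, and the pooled SD within a genotype was 0.0562. Libraries held 17431309 to 21446420 mRNA counts. Among cell type markers, the summed FPKM of 18 meiotic spermatocyte genes was 4113.8 to 4266.8 in wild-type testis and 3801 to 4094.4 in the knock-in, lower without overlap, with 0 genes called and a median log2 fold change of -0.05. Gene by gene in CPM, however, 4 of the 18 were separate and higher in the knock-in, where 10.1% of all genes were, and 0 lower. For 18 round spermatid genes the sums overlapped, at 3014.8 to 3272.9 and 3090.1 to 3178.1 FPKM. Of these, 1 gene was called higher, and the median was 0.06. For 17 elongating spermatid genes the sums were 16907.6 to 19464.1 and 17273.2 to 20157.6, with 4 genes called higher and a median of 0.12. Over all genes tested 0.88% were called higher. Of the 17, 12 were above 0 and 5 below, with Prm1 lowest (-0.31 ± 0.12 SE, adjusted p = 0.303 by edgeR). The sums of 14 spermatogonial genes did not overlap, at 460.8 to 465.8 against 478.1 to 494.3 FPKM, higher in the knock-in with 0 called. All 8 peritubular myoid genes were above 0, with a median of 0.37 and 0 called. Another 15 markers were those of the epididymis and of multiciliated efferent duct cells, the latter rich in IFT genes too. Of these 7 were tested and 0 called. Defb29, Lcn5 and Lcn8 were at 0 in all libraries, and Crisp1 was present in wild-type library 2 and knock-in library 1, at 11.9 and 9.51 CPM. The summed FPKM of these markers was 170.3 to 177.4 in wild-type testis and 172.5 to 190.5 in the knock-in. Most of it came from Cst8 (means of 114 and 119) and Deup1 (39.9 and 44.2), so the sum does not follow Crisp1. The part of cell composition in the members' values was not tested.

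Dividing counts by FPKM and library total gives the transcript length that the authors' FPKM implies in each library, which would change if reads were assigned to longer or shorter isoforms; the tool that made the FPKM is not given in the sources used here. This readout was added after the counts and FPKM had been compared. By limma 0 members were called, and 2 of 11901 genes in all (0.0168%). The implied lengths of the genotypes did not overlap for 9 members, 6 longer and 3 shorter in the knock-in, against 12.9% of all genes.

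Ift22 had 1859, 1817 and 1868 bp in wild-type testis against 1987, 2009 and 2017 bp in knock-in testis, 8.47% longer (limma, adjusted p = 0.114). Ift172 had 5526, 5588 and 5470 bp against 6125, 6049 and 6335 bp, 11.6% longer (adjusted p = 0.137). By construction Ift172 then differs between scales: its counts were 726 ± 34.0 CPM in wild-type testis and 741 ± 42.4 in the knock-in, while its FPKM were 132 ± 3.76 and 120 ± 2.04 (SD over 3 libraries each). Cluap1 was 11.05% longer (adjusted p = 0.299), so its higher CPM did not appear in FPKM, at 33.8 ± 2.53 and 34.4 ± 0.931.

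Ttc8, a BBSome subunit, had 1759, 1913 and 2105 bp against 2158, 2322 and 2377 bp, 18.9% longer (limma, adjusted p = 0.458). The other members without overlap moved by under 3%: Ift27 and Bbs12 were 2.69% and 2.13% longer, and Ift52, Traf3ip1 and Hspb11 were 2.91%, 2.40% and 2.26% shorter. Ift43 implied 1008 to 1013 bp in all libraries, so its counts and FPKM kept a nearly fixed ratio.

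**Figure D4:**
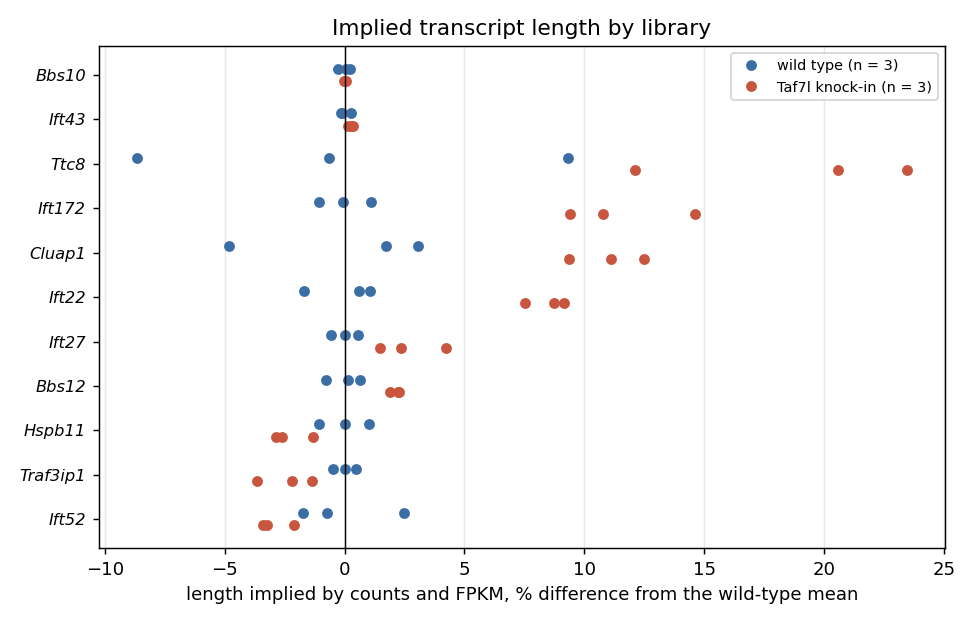
Transcript length implied by counts and FPKM in each library, as percent difference from the wild-type mean of the gene, for the 9 members whose genotypes do not overlap and for Bbs10 and Ift43. Ttc8, Ift172, Cluap1 and Ift22 lie 8.47% to 18.9% higher on average in the knock-in, and none of the 9 was called.

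The noncoding table held 34 transcripts that carry the symbol of a member, from 17 of the 33 genes. Of these 6 were tested and 0 called, against 9 of 9301 transcripts in all (0.0968%), and 6 had no count in any library. The 3 most abundant were transcripts of Ift46 (105, 94 and 73 counts in wild-type testis, 110, 93 and 114 in the knock-in), Ift74 (84, 100 and 78, then 130, 54 and 103) and Bbs1 (52, 75 and 37, then 47, 62 and 61), all overlapping. They summed to 589, 549 and 334 counts, a small part of the 13651, 11026 and 5330 counts of the coding genes.

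At an unadjusted p under 0.05 there were 2 of the 6, against 834 of all 9301 (8.97%), both from BBSome subunits and both lower in the knock-in; they are named after their values were seen. A Ttc8 transcript (ENSMUST00000168255) had 52, 42 and 27 counts in wild-type testis against 22, 19 and 21 in knock-in testis, a log2 difference of -1.04 ± 0.30 (SE; edgeR, adjusted p = 0.332). A Bbs4 transcript (ENSMUST00000214832) had 29, 15 and 27 against 12, 7 and 18, with -1.03 ± 0.43 (adjusted p = 0.532). The Ttc8 libraries did not overlap and the Bbs4 libraries did. The coding genes themselves had -0.01 ± 0.10 for Ttc8 and -0.02 ± 0.09 for Bbs4, and the implied coding length of Bbs4 was 11.1% longer with overlap (limma, adjusted p = 0.565).

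Circular RNAs, closed loops made by back-splicing, came from 10 members, 26 circles in all, 22 of them made of annotated exons. Of these 15 were tested and 0 called, and over all circles 0 of 3887 were called by edgeR (0%), with 191 at an unadjusted p under 0.05. Counts were low, 228 in all, 99 in wild-type testis against 129 in knock-in testis, and no circle of a member had more than 12 counts in a library. Ift80 gave 9 circles with 102 counts, Ift81 gave 7 with 66 and Ift88 gave 3 with 30. The 2 most abundant were an Ift80 circle (mm10, positions as deposited, chr3:68962180-68994582, 979 bases spliced) with 9, 10 and 6 counts against 3, 5 and 10, and an Ift81 circle (chr5:122591080-122611107, 1261 bases) with 3, 2 and 2 against 12, 1 and 8. The third, also from Ift80 (chr3:68962180-68967956, 338 bases), had 3, 6 and 2 against 3, 2 and 4. All 3 overlapped between genotypes. The intervals were wide: the Ift81 circle had a log2 fold change of 1.38 with a 95% interval of -0.16 to 2.93.

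Genes that work with the IFT particles and the BBSome were counted too. Of 19 kinesin and dynein genes listed as motors, 0 were called, with a median of 0.04. The list includes dynein light chains that also serve dyneins outside the cilium. In CPM 8 of the 19 were nevertheless separate and higher in the knock-in, where 10.1% of all genes were, and 1, Kif3c, was separate and lower. The 8 were the dynein intermediate chain gene Wdr60 and the dynein light chains Dynll2, Dynlrb1, Dynlrb2, Dynlt1a, Dynlt1b, Dynlt1c and Dynlt1f, named after their values were seen; the Dynlt1 genes are near-identical copies whose reads may be shared. The summed FPKM of the motors was 1421.1 to 1513.2 in wild-type testis and 1610.6 to 1652.7 in the knock-in, without overlap. The largest differences in mean FPKM were those of the light chains Dynlt1b (566 and 654) and Dynlt1f (238 and 288). The dynein genes Dync2h1, Dync2li1, Wdr34, Wdr60 and Tctex1d2 had log2 fold changes of -0.07, 0.15, -0.02, 0.04 and -0.04. Kif3a, Kif3b, Kif3c, Kifap3 and Dync2h1 had lower means in the knock-in, so the sum does not describe each motor. The highest value was that of Dynlrb2, a dynein light chain made in ciliated cells and testis, with 21.1, 17.6 and 17.2 CPM against 25.9, 26.3 and 29.3, without overlap (log2 0.54 ± 0.11 SE; edgeR, adjusted p = 0.0523). The lowest was Kifap3, a subunit of the anterograde kinesin (-0.27 ± 0.20, adjusted p = 0.638). With the trend over length removed Dynlrb2 had 0.38 on the log2 scale (edgeR, adjusted p = 0.138). The part of gene length in the values of the light chains was not tested beyond this. Of 22 genes of the transition zone, the gate at the base of the cilium, 0 were called, with a median of 0.08. In CPM 5 of the 22 were separate and higher: B9d1, Tctn1, Tmem107, Tmem231 and Tmem237. Rpgrip1 was the 1 separate and lower (-0.36 ± 0.08 SE, adjusted p = 0.0617 by edgeR). These are named after their values were seen. The highest value there was that of Iqcb1, with 1.75, 3.64 and 9.20 CPM against 24.0, 12.5 and 2.40 (1.41 ± 0.71), spread widely within both genotypes, and the lowest that of Mks1 (-0.43 ± 0.35). Of 12 regulators of ciliary genes 0 were called, with a median of 0.07. Among them Rfx1 had 0.30 ± 0.11 (adjusted p = 0.266) and Tcfl5 -0.10 ± 0.08.

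Outside the 33 members, 27 partners of the particles and further subunits were tested, a list chosen with earlier results of these data known. Of these 3 were called, all higher in the knock-in, where 0.88% of all genes were called higher. In CPM 6 of the 27 were separate and higher and 4 separate and lower, against 18.5% of all genes in either direction. The list's median was -0.06. Bbip1 of the BBSome and Ttc30a1, Ttc30a2 and Ttc30b of IFT-B are subunits that the members leave out. Ttc30a2 had 441, 402 and 407 CPM in wild-type testis against 396, 335 and 369 in the knock-in. It was lower without overlap (-0.18 ± 0.07 SE, adjusted p = 0.316 by edgeR), while Ttc30a1 and Ttc30b overlapped. Over the 28 genes of the list, tested or not, the summed FPKM was 1010.8 to 1017.6 in wild-type testis and 1094.5 to 1100.6 in the knock-in. Tulp2 alone had means of 358 and 432 FPKM. Gene by gene, 11 log2 fold changes were above 0 and 16 below. Arl3, the GTPase that releases lipidated cargo in the cilium, had 33.02, 30.4 and 30.8 CPM against 44.4, 48.6 and 52.7 (log2 0.63 ± 0.09 SE; edgeR, adjusted p = 0.0137). Cby1, a basal body protein, had 14.8, 25.2 and 23.1 against 51.5, 32.6 and 57.0 (1.16 ± 0.23, adjusted p = 0.0473). Tulp2, a testis relative of Tulp3, had 738, 684 and 705 against 883, 857 and 852 (0.28 ± 0.05, adjusted p = 0.0468). For each of the 3 all knock-in libraries lay higher. Arl3 remained called in 11 of 14 alternative analyses, Tulp2 in 5 and Cby1 in 3, and Arl3 was lost without the same single libraries as Ift43 (wild-type 2 or 3, or knock-in 3; adjusted p = 0.0670, 0.0718 and 0.0887). Cby1 was called with knock-in library 2 left out and lost without any other single library (adjusted p = 0.0994 to 0.201), and Tulp2 was lost without any single library (0.0592 to 0.228).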

How the data were processed

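Stranded total RNA libraries of 6 whole-testis samples, 3 per genotype, were analysed from 3 tables, mapped to mm10 per the submitters' processing notes. Aligner, counter, annotation and strand use: not given in the sources used here. Per the file headers, the authors deposited whole-number counts and FPKM per gene or noncoding transcript, counts and RPM per circular RNA with their spliced length, a mean signal per genotype, a log2 ratio, and a p-value with its adjusted form, the test not being named. The authors' FPKM were used for levels; the deposited RPM and mean signal of circles were not used. FPKM were not counts over 1 fixed length, so the implied length varied between libraries.

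Counts were tested with edgeR 4.0.16 (quasi-likelihood, TMM scaling, filterByExpr with a minimum count of 10 and a total of 15, two-sided, Benjamini-Hochberg over all features of a table) in R 4.3.3. CPM are TMM-scaled. Circles needed counts in 3 of the 6 libraries. Implied lengths (FPKM of at least 1 in each library) were tested with limma 3.58.1. Both tests were tested on simulated data. With 3 libraries against 3, an exact permutation test could not go below p = 0.1 and was not used. The members and lists were chosen with earlier results of these data known. Named were members called, without overlap in CPM, the 4 highest and 4 lowest in fold change and the 3 highest and lowest in FPKM, and, of other lists, called genes or the largest rise and fall; in the noncoding and circular tables, those called and the 3 most abundant. Other genes are named to describe the particles. Alternatives were other scalings, DESeq2 1.42.0, no filter, limma on log2(FPKM + 0.1 or 1), a replicate block, removal of a trend over length, and each library left out. Libraries of 1 genotype differed by more than counting noise (chi-square per degree of freedom of 5.42 to 10.4) and were counted as separate libraries; this does not show that they come from separate animals.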

Additional observations from a re-analysis of the deposited data

How the results depend on the processing

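Over 14 alternative analyses Ift43 kept a log2 fold change of 0.40 to 0.54 and was called in 11, with an adjusted p of 2.17e-05 to 0.0950. The members' median ran from -0.04 to 0.01, and no other member was called in any of the 14. The count of all genes called was 155, and became 456 with DESeq2, 251 and 263 with limma on log2(FPKM + 0.1) and log2(FPKM + 1), 87 with the length trend removed and 11 to 125 with single libraries left out, where 0 to 1 members were called. Without both libraries that held Crisp1 it was 39, with 0 members called and Ift43 at 0.45 (edgeR, adjusted p = 0.110). With a replicate block 178 genes and 1 member were called (Ift43 0.50, edgeR, adjusted p = 0.0225). The labels do not say what the replicate numbers mark. In a check of pairing, correlations between wild-type and knock-in libraries ran from -0.151 to 0.142, so they do not describe expression levels as such. For same-numbered libraries they were 0.142, 0.111 and 0.0148. Each knock-in library correlated best with the wild-type library of its own number. For knock-in library 3 the margin was small (0.0148, against 0.0116 with wild-type library 1). Wild-type library 3 correlated best with knock-in library 2 (0.0390). Whether the numbers mark a pairing was not tested beyond the replicate block. Noncoding calls went from 9 to 129 without a filter on low counts, 2 with the replicate block and 6 to 15 with single libraries left out; circles gave 0 to 1. Calls on implied length went from 2 to 20 with FPKM of at least 5, 0 with the replicate block and 0 to 1 with single libraries left out; 0 members were called in any of these. Of 462 values of single members, 406 kept direction and call, 3 were the losses of Ift43 and 53 changed sign, all of members near 0 and not called. Ift88 and Ift27 became -0.0055 and -0.0013 with DESeq2 size factors, -0.0052 and -0.00091 with DESeq2, and -0.016 and -0.012 with upper-quartile scaling. On log2(FPKM + 0.1) Ift22 became -0.077, Ift172 -0.14, Ift27 -0.044 and Ift52 0.0066; on log2(FPKM + 1) they became -0.076, -0.14, -0.043 and 0.0060. With the length trend removed Wdr19 became 0.0062, Ttc26 0.0047, Ift140 0.019, Ift46 -0.026 and Ift27 -0.087. With single libraries left out the ranges were -0.099 to 0.036 for Ift81, -0.13 to 0.017 for Ift52, -0.068 to 0.024 for Wdr19, -0.040 to 0.0051 for Ttc26, -0.068 to 0.048 for Bbs4, -0.043 to 0.056 for Ift140, -0.018 to 0.11 for Bbs1, -0.024 to 0.077 for Ift46, -0.022 to 0.086 for Lztfl1, -0.067 to 0.037 for Ttc8, -0.032 to 0.024 for Ift88, -0.058 to 0.077 for Ift27, -0.077 to 0.0088 for Bbs7, -0.13 to 0.061 for Ift20, -0.00049 to 0.095 for Ift22, -0.12 to 0.041 for Ift74, -0.062 to 0.0045 for Ift122 and -0.0074 to 0.074 for Ift172. Values on counts and on FPKM differ by construction with the implied length, as given for Ift172. The cause of the other changes was not tested. The partner genes and Dynlrb2 were followed through the same alternatives after their values were seen. Dynlrb2 was called in 4 of 14.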
